A study of Mus musculus with 6 samples.

Results

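The genes described are 39 mouse counterparts of genes that are recurrently mutated in human acute myeloid leukaemia (AML). They were chosen by name for that role, as members of DNA methylation, polycomb, histone modifier, cohesin, splicing and RAS or JAK signalling pathways. No measured value entered the rule, although the genes were chosen with earlier results of these data known. All 39 were found among the 43629 gene IDs measured, and all 39 passed the filter on low counts, which kept 15432 genes. The values are mRNA levels, so they say nothing of whether a gene carried a mutation in a given mouse. RNA was taken from sorted marrow cells bearing c-kit, in 6 mice of the C57BL/6 strain whose leukaemia had reached its end stage, with 1 library per mouse. All mice carried the Cbfb-MYH11 knockin allele, which mimics the fusion gene made by inversion of chromosome 16 in human AML. The 3 Gata2+/f mice, replicates 7, 9 and 11, also carried 1 altered allele of Gata2, the gene of a haematopoietic transcription factor. The 3 Gata2+/+ mice, replicates 3, 5 and 6, had 2 unaltered alleles. The labels give neither the age of the mice nor a Cre line or an agent that would act on the allele written f. They also do not say whether these libraries come from separately induced leukaemias, and p-values measure the spread between these mice only.

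These genes work at successive layers of gene control. DNMT3 enzymes put methyl groups on DNA and TET enzymes oxidise them. Polycomb repressive complex 2, with EZH1 or EZH2 as its enzyme, methylates lysine 27 of histone H3, and KMT2 enzymes, KDM6A and the acetyltransferases CREBBP and EP300 act on active enhancers and promoters. Cohesin folds chromosomes into loops that end at CTCF sites, splicing factors recognise the ends of introns, and RAS and JAK proteins relay signals from cytokine receptors such as KIT. In human AML, mutations in most of these genes lower or alter the function of the protein, whereas those in RAS, PTPN11 and JAK2 activate it.

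Library totals ran from 53789568 to 67854631 expected counts, and 3 counts were worth 0.0424 to 0.0600 CPM (counts normalised to library size with TMM factors). Gata2 averaged 345 ± 133 CPM in Gata2+/f and 837 ± 86.5 CPM in Gata2+/+ (SD, n = 3 each), and its groups did not overlap. Its log2 fold change was -1.28 (SE 0.32), with an adjusted p of 0.109 by edgeR's quasi-likelihood test. The sorted cells held Kit, at 193, 175 and 328 CPM in Gata2+/f, against 826, 1222 and 1466 CPM in Gata2+/+. Other marker lists moved with genotype. The summed CPM of 12 late neutrophil markers was 4026 to 8043 in Gata2+/f and 152 to 445 in Gata2+/+, and all 12 were higher in Gata2+/f. That of 12 mast cell markers was 2496 to 6497 in Gata2+/f and 14287 to 16946 in Gata2+/+, with all 11 of those tested lower in Gata2+/f and Tpsab1 without a count there. That of 20 proliferation genes was 3033 to 4537 in Gata2+/f and 1250 to 2328 in Gata2+/+, with all 20 higher in Gata2+/f. The 8 early granulocyte, 11 monocyte and 9 dendritic cell markers were all higher in Gata2+/f by sign, and the erythroid markers were split, 5 and 5. Summed early granulocyte CPM overlapped, at 2342, 11837 and 2788 in Gata2+/f replicates 7, 9 and 11, against 928, 3325 and 1375 in Gata2+/+. Replicate 9 was thus far above the rest. Dendritic cell sums overlapped too, at 444 to 1033 in Gata2+/f and 159 to 623 in Gata2+/+. Monocyte sums were 1045 to 2565 in Gata2+/f and 403 to 1021 in Gata2+/+. The part of these differences in the values below was not tested, and in bulk RNA fewer cells of a type and less RNA per cell cannot be told apart. Xist, expressed from an inactive X chromosome, had 1287 CPM in Gata2+/f replicate 11, and 1859 and 1339 CPM in Gata2+/+ replicates 5 and 6. The other libraries had Y-linked transcripts, so both genotypes held mice of both sexes.

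By edgeR's quasi-likelihood test with Benjamini-Hochberg adjustment over all genes, 0 of the 39 genes passed an adjusted p of 0.05, as did 0% of the 15432 genes tested. DESeq2 called 2 of the 39 genes (5.13%), Ezh1 and Crebbp, both lower in Gata2+/f, against 10.5% of the 16441 genes to which it gave an adjusted p (5.55% higher and 4.94% lower). Log2 fold changes are those of the edgeR fit throughout. A later form of the quasi-likelihood test with adjusted deviances called 0 of the 39 and 0.207% of all genes. At an unadjusted p under 0.05 in the main test, 4 of the 39 genes were higher in Gata2+/f (10.3%), against 11.1% of all genes tested. These were Idh1, Idh2, Ezh2 and U2af1. In the same count 9 of the 39 genes were lower in Gata2+/f (23.1%), against 11.5% of all genes. These were Ezh1, Asxl2, Kmt2c, Kmt2d, Kdm6a, Setd2, Crebbp, Ep300 and Jak2. Without Gata2+/+ replicate 3 the lower genes were 3, Ezh1, Crebbp and Wt1, against 6.51% of all genes, and without Gata2+/+ replicate 6 they were 5, against 7.31% of all genes. Groups that did not overlap in CPM were found for 2 genes higher in Gata2+/f, against 13.1% of all genes, and for 12 genes lower (30.8%), against 16.6% of all genes. In either direction these were 14 of 39 (35.9%), against 29.7% of all genes.

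The median log2 fold change of the 39 genes was -0.25, against 0.02 over all genes tested, and 16 of the 39 had a positive value (41.0%), against 51.1% of all genes, while 23 were below 0 (59.0%), against 48.9%. No test compared the roles. Histone modifiers had the lowest median of the groups with more than 1 gene, -0.95 over 8 genes with 7 below 0. Many of them are long genes. Kmt2a, Kmt2c, Kmt2d, Crebbp and Ep300 have over 12 kb of exons, a length at which the median over all genes tested was -0.343. Kdm6a and Setd2 have 8 to 12 kb, a length at which it was -0.135. Polycomb genes had a median of -0.40 with 5 of 8 below 0, and cohesin with CTCF had -0.16 with 4 of 6 below 0. DNA methylation genes had a median of 0.26, splicing genes 0.07 and RAS or JAK genes 0.06. Without Gata2+/f replicate 9, a library taken up next, the medians were -0.58 for histone modifiers with 7 of 8 still below 0, -0.24 for polycomb genes and 0.10 for cohesin with CTCF, of which 2 of 6 were then below 0. No list was tested as a set, and the medians are given as descriptions.

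**Figure D1:**
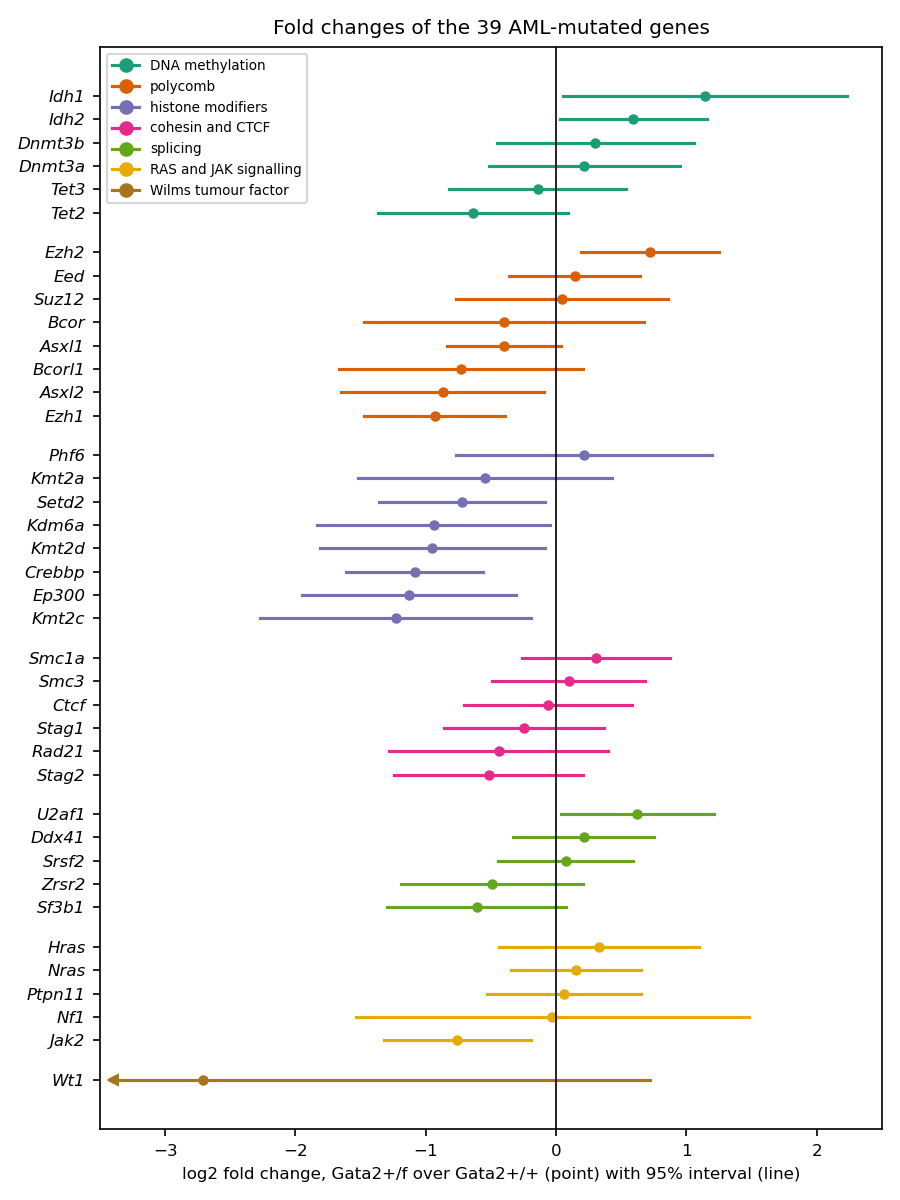
Log2 fold change of each of the 39 genes (points, x axis), Gata2+/f over Gata2+/+, with unadjusted 95% intervals (lines) from edgeR's quasi-likelihood fit, coloured by role. The intervals of Ezh2, Idh1, Idh2 and U2af1 lie above 0 and those of 9 genes, 6 of them histone modifiers, below 0. The interval of Wt1 runs on to -6.14 past the arrow.

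One library weighed on these counts. Gata2+/f replicate 9 had the lowest value of the 6 libraries for 23 of the 39 genes (59.0%), whereas it was lowest for 22.8% of all genes tested. These genes are long, with a median summed exon length of 7.44 kb, against 3.88 kb over 15256 tested genes with a length. The longest, Kmt2c, has 20.3 kb of exons. In replicate 9 the level of a gene declined with exon length. Over 703 genes with more than 12 kb of exons, the median deviation of its log2 CPM from the gene mean of the 6 libraries was -0.61, whereas it was 0.295 over 3292 genes of up to 2 kb. For genes over 12 kb the medians were 0.037 and 0.015 in Gata2+/f replicates 7 and 11. In Gata2+/+ replicates 3, 5 and 6 they were higher, at 0.283, 0.14 and 0.186. For genes of up to 2 kb these Gata2+/+ libraries had -0.03, 0.062 and -0.056. Across the 39 genes, Spearman's rho between exon length and log2 fold change was -0.62 and Pearson's r with log10 length was -0.52. Over all genes tested rho was -0.08 and r -0.05. All genes were measured in the same 6 libraries, so these coefficients are descriptions.

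Without replicate 9, the median log2 fold change of the 39 genes was 0.02, against 0.04 over all genes. By exon length, their median was still 0.249 for genes of 2 to 4 kb and -0.442 for genes over 12 kb. Over all genes tested these medians were 0.079 and -0.107. Then 1 of the 39 genes, Ezh2, was higher at an unadjusted p under 0.05, and 7 were lower. The lower genes were Ezh1, Asxl2, Kmt2c, Kmt2d, Crebbp, Ep300 and Jak2. Over all genes the shares without that library were 10.4% higher and 9.29% lower. Groups that did not overlap were then found for 5 genes higher (Dnmt3a, Idh2, Ezh2, Smc1a and Nras), against 17.7% of all genes, and for 13 lower, against 22.6%. With replicate 9 kept and a per-library offset for exon length in the model, a setting chosen after seeing the data, the median of the 39 genes was -0.07. With that offset the medians were 0.26 for 2 to 4 kb and -0.422 over 12 kb, against 0.048 and -0.011 over all genes. Histone modifiers then had a median of -0.683, with 7 of 8 below 0. The same 9 genes were then lower, and Dnmt3a took the place of U2af1 among the 4 higher. What sets replicate 9 apart was not tested, and values without it are given below for many of the long genes.

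**Figure D2:**
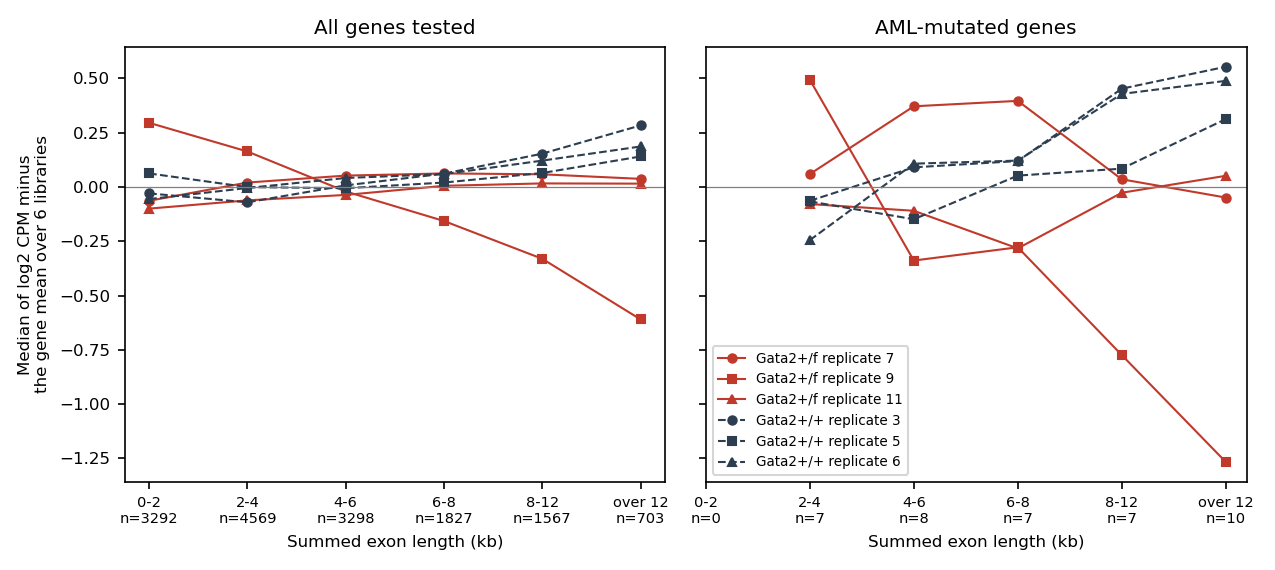
Median deviation of log2 CPM from the gene mean over 6 libraries (y axis) in bins of summed exon length in kb (x axis), 1 line per library, for all genes tested (left) and the AML-mutated genes (right, 7 to 10 genes a bin). Gata2+/f replicate 9 declines with length in both panels, to -0.61 and -1.27 in the bin over 12 kb.

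**Figure D3:**
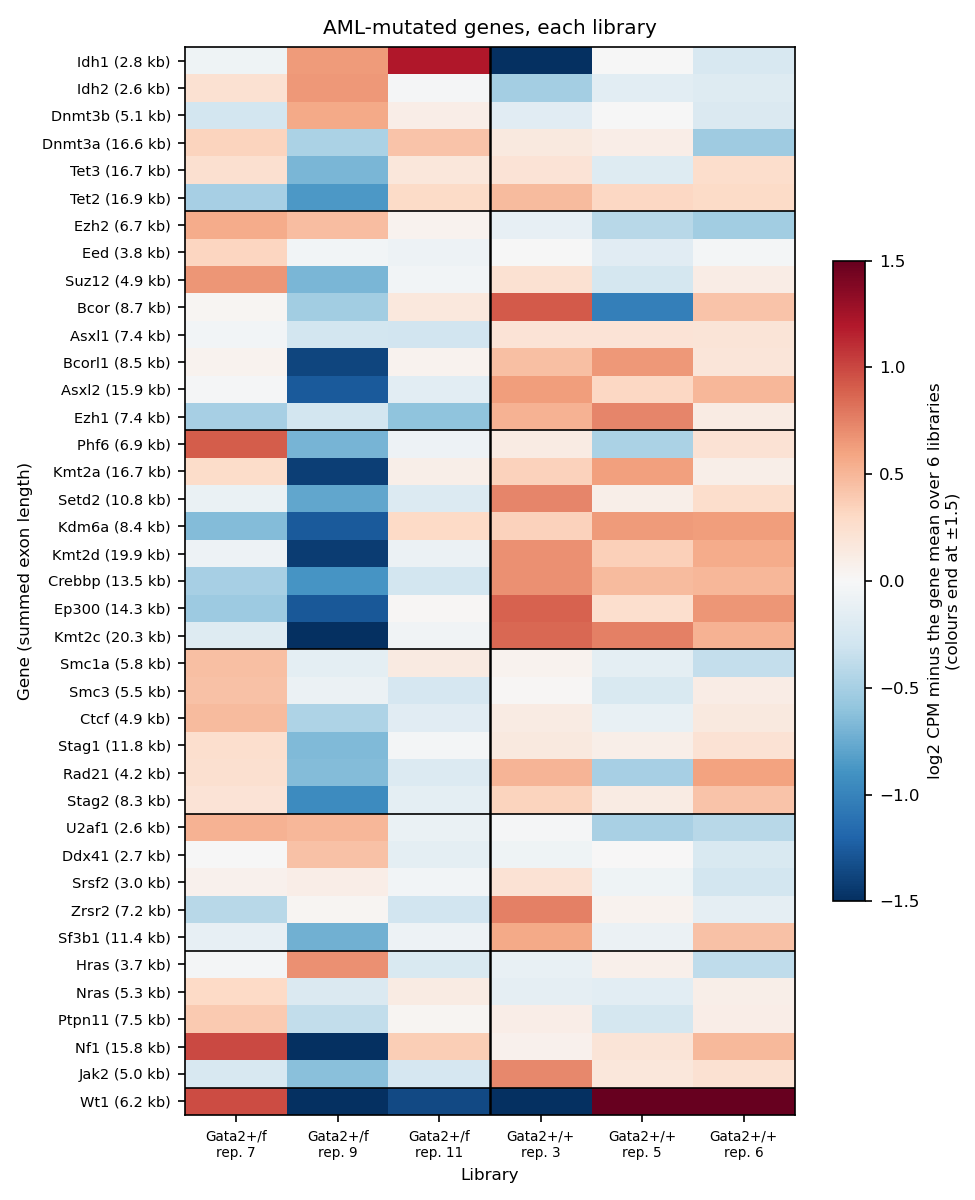
Log2 CPM minus the gene mean over 6 libraries (colour, ending at 1.5 in either direction) for the 39 genes (rows, by role, with exon length) in each library (columns). CPM under 0.02 are drawn at 0.02, which concerns Wt1. The column of Gata2+/f replicate 9 is lowest for 23 genes. Of the 8 histone modifiers, 6 are higher in every Gata2+/+ column than in any Gata2+/f column, but Kmt2a and Phf6 are not.

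Within polycomb repressive complex 2, the alternative enzymes EZH1 and EZH2 stood in opposite directions. EZH2 is the form of dividing cells, while EZH1 is kept in cells that divide little. Both genes lie on the minus strand, Ezh1 at chr11:101191115-101226463 and Ezh2 at chr6:47530139-47595341 (GRCm38, GENCODE M21). Their promoters are shown because these genes make the clearest pair of opposite values among the 39. The sequences are RefSeq's for GRCm38.p6, on the minus strand, and lie before the gene start that RefSeq gives. Capitals mark the CCAAT box, a common promoter motif, read as CCAAT on either strand. The Ezh1 run is the whole 250 bases before the start, at chr11:101226464-101226713, and holds no CCAAT. The Ezh2 run, at chr6:47595059-47595183, is the 125 bases of its window that lie in no GENCODE exon and holds 2 of the 3 matches in that window. It ends 28 bases before RefSeq's start at 47595030, where 3 of the 15 GENCODE models of Ezh2 also start. The gene span given above ends further upstream because 1 longer model starts there, and the run lies within an intron of that model, unlike the Ezh1 run, which no GENCODE model of Ezh1 spans.
Ezh2: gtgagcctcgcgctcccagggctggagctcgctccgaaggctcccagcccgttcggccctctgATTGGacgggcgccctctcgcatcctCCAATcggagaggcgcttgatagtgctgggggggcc
Ezh1: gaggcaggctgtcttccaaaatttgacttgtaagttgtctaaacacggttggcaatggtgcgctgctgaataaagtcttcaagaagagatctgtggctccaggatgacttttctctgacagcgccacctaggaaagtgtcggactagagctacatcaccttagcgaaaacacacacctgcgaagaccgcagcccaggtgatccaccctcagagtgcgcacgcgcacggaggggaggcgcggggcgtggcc

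Ezh1 had 46.4, 53.9 and 42.9 CPM in Gata2+/f replicates 7, 9 and 11, against 94.1, 108 and 71.1 CPM in Gata2+/+ replicates 3, 5 and 6. Every Gata2+/f library lay below every Gata2+/+ library, and replicate 9 was the highest of the Gata2+/f values. The means were 47.7 ± 5.57 CPM in Gata2+/f and 91.1 ± 18.7 CPM in Gata2+/+ (SD, n = 3 each), so the level in Gata2+/f was 52.4% of that in Gata2+/+. The log2 fold change came to -0.93 (SE 0.23, 95% interval -1.47 to -0.39). The adjusted p was 0.110 by edgeR's quasi-likelihood test and 0.0289 by DESeq2. Without replicate 9 the log2 fold change was -0.98, and over all settings it ran from -1.05 to -0.80.

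Ezh2 had 158, 149 and 112 CPM in Gata2+/f, against 98.6, 80.5 and 74.8 CPM in Gata2+/+. These groups did not overlap either, with the Gata2+/f libraries above. The means were 139 ± 24.5 CPM in Gata2+/f and 84.6 ± 12.4 CPM in Gata2+/+ (SD, n = 3 each), with 0.72 (SE 0.23, 95% interval 0.19 to 1.25) as the log2 fold change. It missed the threshold in both tools, with an adjusted p of 0.148 by edgeR's quasi-likelihood test and 0.0914 by DESeq2. Ezh2 lies on chromosome 6, whose genes had a median log2 fold change of 0.20 and a median deviation of 0.21 in replicate 9. Without that library the log2 fold change was 0.725.

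Per kilobase of exon, Ezh2 was 3.79, 3.08 and 2.90 times as abundant as Ezh1 in the Gata2+/f libraries, against 1.17, 0.829 and 1.17 times in the Gata2+/+ libraries. The mean ratio was 3.26 ± 0.474 in Gata2+/f and 1.06 ± 0.197 in Gata2+/+ (SD, n = 3 each), and the log2 ratio differed by 1.63. The summed proliferation genes did not overlap between the genotypes either, Gata2+/f being above, and their part in this ratio was not tested.

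**Figure D4:**
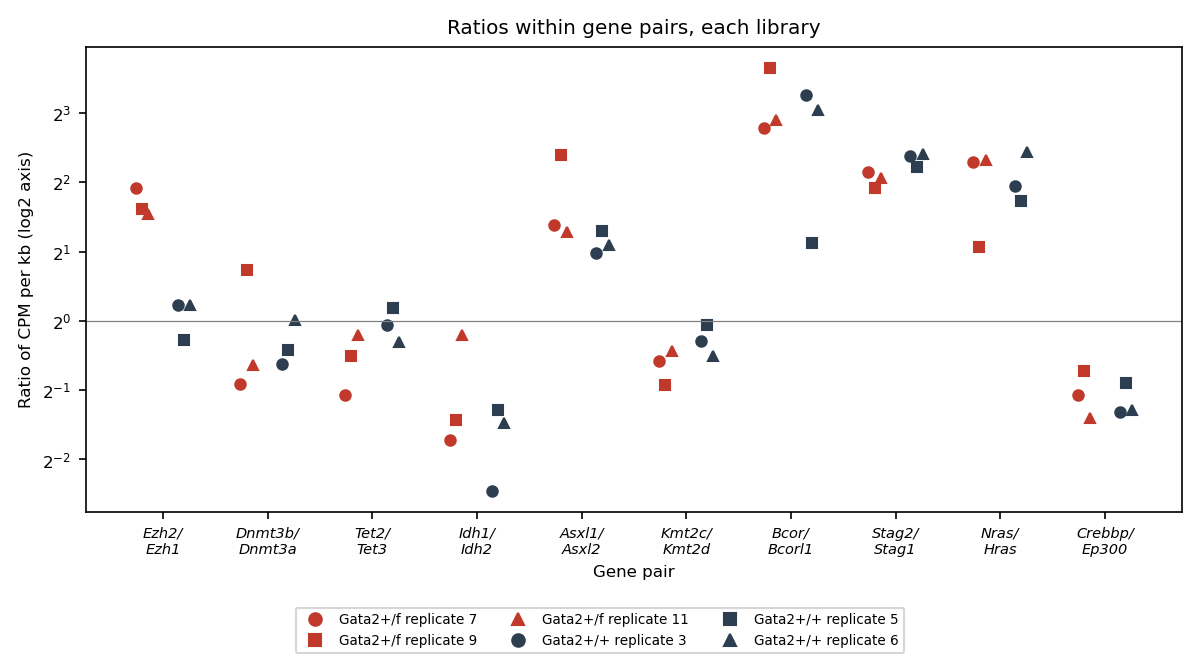
Ratio of CPM per kb between the genes of 10 related pairs (x axis) in each library, on a log2 y axis; red marks Gata2+/f and dark blue Gata2+/+. Ezh2 over Ezh1 is 2.90 to 3.79 in Gata2+/f and 0.829 to 1.17 in Gata2+/+, and apart from Stag2 over Stag1 the groups of the other pairs overlap.

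The other core subunits were near their Gata2+/+ levels on average. Eed, which reads the methylated histone, had 55.6, 43.5 and 42.3 CPM in Gata2+/f, against 44.6, 39.6 and 43.9 CPM in Gata2+/+. Suz12, which holds the complex together, averaged 149.7 ± 68.7 CPM in Gata2+/f and 145 ± 24.6 CPM in Gata2+/+ (SD, n = 3 each). Their log2 fold changes were 0.14 (95% interval -0.36 to 0.64) and 0.04 (95% interval -0.77 to 0.86), intervals that include changes in either direction.

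ASXL proteins activate BAP1, the enzyme that removes the polycomb mark from histone H2A. Asxl1 had 145, 123 and 122 CPM in Gata2+/f, against 172, 172 and 170.4 CPM in Gata2+/+. Its Gata2+/+ libraries were almost equal, and all 3 Gata2+/f libraries lay below them, with a log2 fold change of -0.40 (SE 0.19, 95% interval -0.84 to 0.04). Asxl2 had 119, 50.2 and 108 CPM in Gata2+/f, against 187, 149.8 and 171 CPM in Gata2+/+. The groups did not overlap, and replicate 9 was far below the other Gata2+/f libraries. Its log2 fold change was -0.87 (SE 0.33, adjusted p = 0.190 by edgeR's quasi-likelihood test) with all libraries and -0.52 without replicate 9.

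BCOR and BCORL1 are X-linked corepressors that join a variant of polycomb repressive complex 1. Bcor had 160.4, 109 and 174 CPM in Gata2+/f, against 297, 77.1 and 211 CPM in Gata2+/+. The lowest and the highest of its 6 values were both in Gata2+/+, and its log2 fold change was -0.40 with all libraries, -0.16 without Gata2+/f replicate 9 and 0.10 without Gata2+/+ replicate 3. Bcorl1 had 23.0, 8.57 and 23.0 CPM in Gata2+/f, against 30.4, 34.8 and 25.1 CPM in Gata2+/+. Its groups did not overlap, and its log2 fold change was -0.73 (SE 0.40), or -0.34 without replicate 9.

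Of 26 other polycomb genes that passed the filter on low counts, of 27 listed, 18 were lower in Gata2+/f. For this list and the other lists below, the shares over all genes were 10.5% called by DESeq2 and 0% called by edgeR. By sign, 51.1% of all genes tested were higher in Gata2+/f and 48.9% lower. At an unadjusted p under 0.05 in edgeR, 11.1% of all genes were higher and 11.5% lower. DESeq2 called 2 lower and 0 higher, while edgeR called 0 with 1 higher and 2 lower at unadjusted p under 0.05. The DESeq2 calls were Phf1 and Cbx7. Phf1, which helps polycomb repressive complex 2 bind chromatin, averaged 20.7 ± 4.47 CPM in Gata2+/f and 82.4 ± 14.2 CPM in Gata2+/+ (SD, n = 3 each), a log2 fold change of -1.99 (adjusted p = 0.0798 by edgeR and 6.31e-07 by DESeq2). Cbx7, which reads methylated lysine 27 for polycomb repressive complex 1, averaged 44.4 ± 15.7 CPM in Gata2+/f and 167 ± 25.1 CPM in Gata2+/+ (SD, n = 3 each), a log2 fold change of -1.91 (adjusted p = 0.0955 by edgeR and 4.95e-05 by DESeq2). Pcgf6 and Phc3, both subunits of forms of polycomb repressive complex 1, had log2 fold changes of 0.80 and -0.82 and passed in neither tool.

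Among the histone modifiers, 7 of 8 had negative log2 fold changes and the groups of 6 did not overlap, all lower in Gata2+/f. CREBBP and EP300 are closely related acetyltransferases that place acetyl groups on histone H3 at active enhancers. Crebbp, at chr16:4081328-4213997 on the minus strand, had 51.9, 39.8 and 60.2 CPM in Gata2+/f, against 118, 101 and 103 CPM in Gata2+/+. Each Gata2+/f library held well under the lowest Gata2+/+ value. The means were 50.6 ± 10.3 CPM in Gata2+/f and 107 ± 9.10 CPM in Gata2+/+ (SD, n = 3 each), so the level in Gata2+/f was 47.1% of that in Gata2+/+. The log2 fold change came to -1.08 (SE 0.23, 95% interval -1.61 to -0.56), with an adjusted p of 0.0966 by edgeR's quasi-likelihood test and 0.0137 by DESeq2. Without replicate 9 it was -0.89 and with the exon length offset -0.78, and Crebbp and Ezh1 kept an unadjusted p under 0.05 in each setting tried.

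Ep300 had 114, 69.2 and 168 CPM in Gata2+/f, against 308, 198 and 264 CPM in Gata2+/+. The groups did not overlap, and its log2 fold change was -1.13 (SE 0.35, 95% interval -1.95 to -0.31). It passed in neither tool, with an adjusted p of 0.148 by edgeR's quasi-likelihood test and 0.0857 by DESeq2, and the log2 fold change was -0.81 without replicate 9. The ratio of Crebbp to Ep300 per kilobase overlapped between the groups, at 0.487 ± 0.114 in Gata2+/f and 0.451 ± 0.0755 in Gata2+/+ (SD, n = 3 each).

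Ep300 and Kmt2d share chromosome 15 with Rad21, and that chromosome as a whole differed between libraries. Over 359 of its well expressed genes, the median deviation from the gene median was -0.02, -0.12 and -0.23 in Gata2+/f replicates 7, 9 and 11, against 0.35, -0.13 and 0.37 in Gata2+/+ replicates 3, 5 and 6. Replicates 3 and 6 of Gata2+/+ were therefore high across the chromosome, and replicate 5 was not. The median log2 fold change of its 554 tested genes was -0.30. All 3 of the genes were at their highest in replicates 3 and 6, although Kmt2d and Ep300 also stayed higher in replicate 5 than in any Gata2+/f library. The part of the chromosome in their values was not tested. Cbx7 and Nipbl, named here from the other lists, lie on chromosome 15 too.

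KMT2C and KMT2D place single methyl groups on histone H3 lysine 4 at enhancers, and KMT2A, the gene product rearranged in many leukaemias, acts at promoters such as those of the HOX genes. Kmt2c had 153, 47.4 and 168 CPM in Gata2+/f, against 318, 296 and 251 CPM in Gata2+/+. The Gata2+/f values all lay below the Gata2+/+ values, and replicate 9 held less than the others by far. Its log2 fold change was -1.23 (SE 0.45, 95% interval -2.27 to -0.19, adjusted p = 0.177 by edgeR's quasi-likelihood test), and -0.79 without replicate 9. Kmt2d had 225, 88.5 and 224 CPM in Gata2+/f, against 383, 304 and 350.1 CPM in Gata2+/+. Its groups did not overlap either and replicate 9 was again the lowest, with a log2 fold change of -0.95 (SE 0.37), or -0.57 without replicate 9. Kmt2a averaged 131 ± 66.0 CPM in Gata2+/f and 191 ± 35.3 CPM in Gata2+/+ (SD, n = 3 each). Its groups overlapped, with Gata2+/f replicates at 179, 55.8 and 158 CPM, and its log2 fold change of -0.55 shrank to -0.14 without replicate 9.

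KDM6A removes methyl groups from lysine 27 and works in the same complexes as KMT2C and KMT2D. Its gene escapes X inactivation, so females tend to have more of its mRNA, and males carry a relative on the Y chromosome, Uty. Kdm6a had 44.5, 29.2 and 86.0 CPM in Gata2+/f replicates 7, 9 and 11, against 89.2, 109 and 108 CPM in Gata2+/+ replicates 3, 5 and 6. The groups did not overlap, but the gap was narrow, since replicate 11 of Gata2+/f, which expressed Xist, came close to replicate 3 of Gata2+/+, which expressed Uty. Among the libraries with Y-linked transcripts, Kdm6a was at 44.5 and 29.2 CPM in Gata2+/f and at 89.2 CPM in Gata2+/+. Among those with Xist, it was at 86.0 CPM in Gata2+/f and at 109 and 108 CPM in Gata2+/+. The log2 fold change was -0.94 (SE 0.39, adjusted p = 0.208 by edgeR's quasi-likelihood test), and -0.81 with sex as a covariate. Leaving out Gata2+/f replicate 9 gave -0.60, and leaving out replicate 11 gave -1.43. Uty had 34.1, 9.32 and 0 CPM in Gata2+/f, against 28.5, 0 and 0 CPM in Gata2+/+. Added to Uty, Kdm6a came to 78.6, 38.5 and 86.0 CPM in Gata2+/f, against 118, 109 and 108 CPM in Gata2+/+.

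Setd2, whose product trimethylates lysine 36 of histone H3 in transcribed genes, had 131, 82.0 and 121 CPM in Gata2+/f, against 233, 149 and 168 CPM in Gata2+/+. The groups did not overlap, and the log2 fold change was -0.72 (SE 0.27, adjusted p = 0.189 by edgeR's quasi-likelihood test). Without replicate 9 it was -0.49 and not among the genes at an unadjusted p under 0.05. Phf6, an X-linked chromatin reader, was the exception in this group, with 73.3, 24.1 and 37.2 CPM in Gata2+/f, against 42.4, 28.2 and 45.4 CPM in Gata2+/+. Its groups overlapped fully, and its sign turned without Gata2+/f replicate 7.

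Of 38 other histone modifier genes, all tested, 24 were lower in Gata2+/f. The median deviation of this list was -0.43 in Gata2+/f replicate 9, against -0.13 to 0.229 in the other libraries. edgeR's quasi-likelihood test called 0, with 11 lower and 4 higher at an unadjusted p under 0.05, against 11.5% and 11.1% of all genes. DESeq2 called 1, which was lower, against 10.5% of all genes in either direction. That gene was Kat6b, an acetyltransferase of histone H3, with 22.8 ± 8.45 CPM in Gata2+/f and 68.2 ± 18.3 CPM in Gata2+/+ (SD, n = 3 each; log2 fold change -1.58, DESeq2 adjusted p = 0.00831). The next by p were Nsd1, a lysine 36 methyltransferase, at -1.09, Kdm5a, a lysine 4 demethylase, at -0.87, and Hdac3, the deacetylase of the NCOR complexes, at 0.67. These 3 did not pass in either tool.

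**Figure D5:**
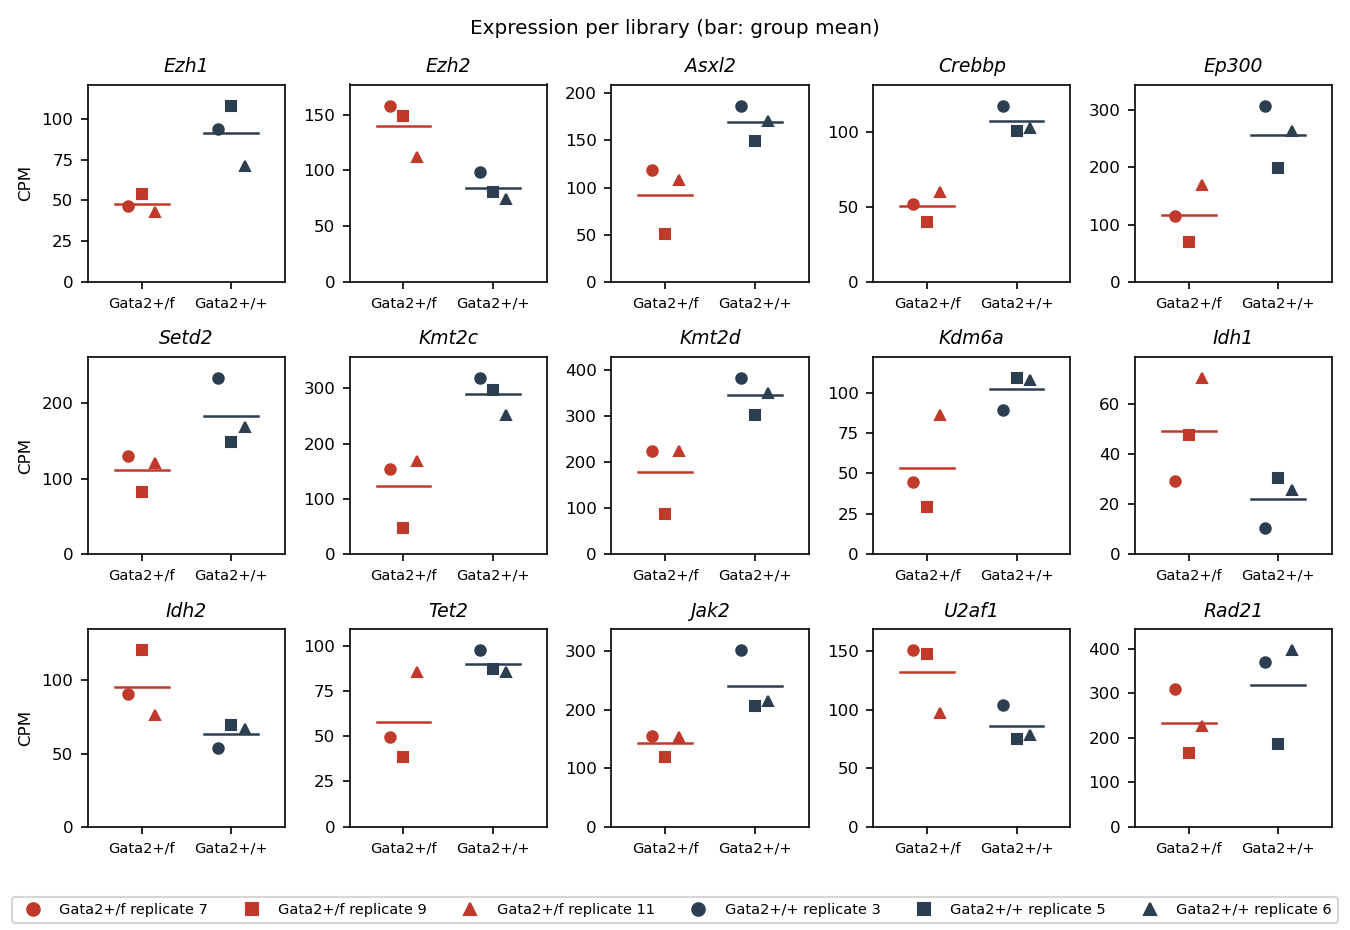
CPM (y axis, from 0) of 15 of the 39 genes in each library, Gata2+/f in red and Gata2+/+ in dark blue; symbols mark the replicate and bars the group mean (n = 3 each). Gata2+/f replicate 9, the red square, is the lowest point for Asxl2, Crebbp, Ep300, Setd2, Kmt2c, Kmt2d, Kdm6a, Tet2, Jak2 and Rad21. It is not the lowest for Ezh1, Ezh2, Idh1, Idh2 or U2af1.

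In the DNA methylation group, the isocitrate dehydrogenases were higher in Gata2+/f and Tet2 was lower, none past the threshold. IDH1 and IDH2 make alpha-ketoglutarate, the cofactor that TET enzymes and histone demethylases need, in the cytosol and in mitochondria. Idh1, at chr1:65158616-65186500 on the minus strand, had 29.3, 47.7 and 70.5 CPM in Gata2+/f, against 10.5, 30.5 and 25.8 CPM in Gata2+/+. Its groups overlapped by a small margin, replicate 7 of Gata2+/f lying under replicate 5 of Gata2+/+. The log2 fold change came to 1.14 (SE 0.47, 95% interval 0.05 to 2.23), with an adjusted p of 0.208 by edgeR's quasi-likelihood test and 0.139 by DESeq2. Idh2 had 90.5, 121 and 76.2 CPM in Gata2+/f, against 54.0, 69.3 and 67.1 CPM in Gata2+/+. Those groups did not overlap, and its log2 fold change was 0.59 (SE 0.24, 95% interval 0.03 to 1.15, adjusted p = 0.206 by edgeR's quasi-likelihood test). Without Gata2+/f replicate 9 the log2 fold change was 1.21 for Idh1 and 0.443 for Idh2, neither with an unadjusted p under 0.05. The ratio of Idh1 to Idh2 per kilobase overlapped between the groups.

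Tet2, the TET enzyme most often mutated in myeloid disease, had 49.5, 38.5 and 85.7 CPM in Gata2+/f, against 97.4, 87.0 and 85.7 CPM in Gata2+/+. All Gata2+/f libraries were lower, but replicate 11 was below replicate 6 of Gata2+/+ by less than 0.1 CPM. The groups were apart by that margin only, and Tet2 is counted above among the 12 lower genes whose groups did not overlap. The log2 fold change came to -0.64 (SE 0.31, 95% interval -1.36 to 0.09), and leaving out 1 library at a time gave -0.99 to -0.36. Tet3, its relative, had 103, 54.1 and 97.6 CPM in Gata2+/f, against 100.3, 75.9 and 104 CPM in Gata2+/+, and its log2 fold change of -0.14 turned to 0.15 without replicate 9. Dnmt3a, the DNA methyltransferase most often mutated in AML, had 65.0, 37.0 and 69.4 CPM in Gata2+/f, against 57.1, 55.1 and 35.5 CPM in Gata2+/+. Gata2+/f replicate 9 and Gata2+/+ replicate 6 were its low libraries, and the groups overlapped through replicate 9. Its log2 fold change was 0.21 with all libraries, 0.50 without replicate 9 and 0.56 with the exon length offset. Dnmt3b, the related enzyme, was the lower of the pair in CPM at 14.4 ± 4.26 in Gata2+/f and 11.7 ± 0.882 in Gata2+/+ (SD, n = 3 each), with a log2 fold change of 0.30 (SE 0.32).

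Of 18 other genes of DNA methylation and isocitrate metabolism, 12 were higher in Gata2+/f. DESeq2 called 2 higher and 0 lower, and edgeR called 0 and had 3 higher and 1 lower with unadjusted p values under 0.05. Uhrf1, which brings the maintenance methyltransferase to newly copied DNA, averaged 186 ± 53.8 CPM in Gata2+/f and 69.7 ± 20.2 CPM in Gata2+/+ (SD, n = 3 each; log2 fold change 1.42, DESeq2 adjusted p = 0.00807). Hells, a chromatin remodeller needed for DNA methylation, had a log2 fold change of 1.26 (DESeq2 adjusted p = 0.0487). Uhrf1 and Hells are both expressed most in dividing cells, and the proliferation genes stood higher in the same libraries, but a link between them was not tested. Idh3a, a subunit of the isocitrate dehydrogenase of the citric acid cycle, had a log2 fold change of 1.13 and passed in neither tool.

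No cohesin gene had groups that did not overlap. The ring of SMC1A, SMC3 and RAD21 entraps DNA, and STAG1 or STAG2 completes it. Smc1a averaged 292 ± 61.2 CPM in Gata2+/f and 236 ± 33.7 CPM in Gata2+/+, and Smc3 averaged 216 ± 56.4 CPM in Gata2+/f and 202 ± 24.1 CPM in Gata2+/+ (SD, n = 3 each). Rad21 had 309, 166 and 226 CPM in Gata2+/f, against 371, 186 and 396 CPM in Gata2+/+. It followed chromosome 15, on which it lies, in that replicates 3 and 6 of Gata2+/+ were its highest libraries and replicate 5 was low. Its log2 fold change was -0.44 (95% interval -1.28 to 0.40).

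Stag2 had 264, 119.7 and 207 CPM in Gata2+/f, against 289, 249 and 308 CPM in Gata2+/+. Stag1 had 85.2, 45.1 and 70.3 CPM in Gata2+/f, against 79.2, 75.9 and 83.1 CPM in Gata2+/+. Both were at their lowest in replicate 9. Stag2 had a log2 fold change of -0.52 with all libraries and -0.21 without replicate 9, and Stag1 had -0.25 with all and 0.02 without. The ratio of Stag2 to Stag1 per kilobase was 4.42, 3.78 and 4.19 in Gata2+/f, against 5.20, 4.67 and 5.29 in Gata2+/+. These ratios did not overlap, the only such case besides Ezh2 over Ezh1 among the 10 pairs, although the log2 ratio differed by only -0.29. Ctcf, which stops cohesin at loop ends, had 201, 105 and 128 CPM in Gata2+/f, against 158, 135 and 161 CPM in Gata2+/+. Its high value in replicate 7 went with a median deviation of 0.42 over 506 genes of chromosome 8, on which it lies, in that library.

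Of 23 other genes of cohesin and condensin, 12 were higher in Gata2+/f, against 51.1% of all genes tested. DESeq2 called 3 higher and 1 lower, and edgeR called 0 and had 6 higher and 1 lower with unadjusted p values under 0.05. The higher calls were Ncaph (log2 fold change 1.22, DESeq2 adjusted p = 0.0202) and Ncapd2 (1.10, adjusted p = 0.0228), both condensin subunits, and Cdca5 (1.18, adjusted p = 0.0416), the cohesin protector sororin. All 3 act in mitosis, and the proliferation genes were again higher in the same libraries, but a link between them was not tested. Nipbl, the loader of cohesin, was the lower call, with 143 ± 62.2 CPM in Gata2+/f and 377 ± 108 CPM in Gata2+/+ (SD, n = 3 each; log2 fold change -1.40, DESeq2 adjusted p = 0.0450).

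Among the splicing genes, U2af1 was the 1 gene with an unadjusted p under 0.05. U2AF1 binds the AG at the end of an intron. U2af1 had 151, 147 and 97.5 CPM in Gata2+/f, against 104, 74.7 and 78.7 CPM in Gata2+/+. Replicate 11 of Gata2+/f lay just below replicate 3 of Gata2+/+, so the groups overlapped, with a log2 fold change of 0.62 (SE 0.25, 95% interval 0.03 to 1.21, adjusted p = 0.205 by edgeR's quasi-likelihood test). Sf3b1, whose product recognises the branch point, had 605, 399 and 623 CPM in Gata2+/f, against 972, 621 and 889.7 CPM in Gata2+/+. Its groups overlapped by 2 libraries of nearly equal value, with a log2 fold change of -0.61 (SE 0.29), or -0.38 without replicate 9, for a gene of 11.4 kb of exons.

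Srsf2, an exonic enhancer binding protein, averaged 358 ± 17.7 CPM in Gata2+/f and 340.4 ± 58.0 CPM in Gata2+/+ (SD, n = 3 each). Its log2 fold change of 0.07 had a 95% interval of -0.45 to 0.59. Its exons overlap those of Mettl23 and Mfsd11 on the opposite strand, so its count is uncertain if reads were not assigned by strand. Ddx41, an RNA helicase, averaged 60.3 ± 13.4 CPM in Gata2+/f and 52.1 ± 4.47 CPM in Gata2+/+ (SD, n = 3 each). Zrsr2, an X-linked factor of the minor spliceosome, averaged 31.4 ± 5.17 CPM in Gata2+/f and 44.1 ± 15.3 CPM in Gata2+/+ (SD, n = 3 each), with groups that overlapped.

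Of 48 other splicing genes, 27 were higher in Gata2+/f, against 51.1% of all genes tested. DESeq2 called 1, while edgeR called 0 and had 5 higher and 4 lower with unadjusted p values under 0.05. The call was Zrsr1, the autosomal relative of Zrsr2, with 14.0 ± 4.79 CPM in Gata2+/f and 39.9 ± 5.06 CPM in Gata2+/+ (SD, n = 3 each; log2 fold change -1.51, DESeq2 adjusted p = 0.00132). The copies are alike in sequence, so the division of shared reads between them is uncertain. Snrpa, a subunit of the U1 particle, at 0.85, Prpf31, a factor of the tri-snRNP, at 0.65, and Srpk2, a kinase of splicing factors, at -0.71 passed in neither tool.

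Of the signalling genes, Jak2 was lower in every Gata2+/f library. JAK2 is the kinase of the erythropoietin, thrombopoietin and other cytokine receptors. Jak2 had 155, 119 and 153 CPM in Gata2+/f, against 301, 206 and 214 CPM in Gata2+/+. The means were 142 ± 20.5 CPM in Gata2+/f and 241 ± 52.5 CPM in Gata2+/+ (SD, n = 3 each), with -0.76 (SE 0.24, 95% interval -1.32 to -0.19) as the log2 fold change. The adjusted p was 0.151 by edgeR's quasi-likelihood test and 0.123 by DESeq2, so it missed the threshold in both. Gata2+/f replicate 9 was its lowest library, and without it the log2 fold change was -0.589. Leaving out 1 library at a time gave -0.864 to -0.515, the latter without Gata2+/+ replicate 3.

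For the RAS genes no difference between the genotypes was resolved. Nras had 121, 84.3 and 107 CPM in Gata2+/f, against 88.9, 87.8 and 104 CPM in Gata2+/+, a log2 fold change of 0.15 (95% interval -0.35 to 0.65). Hras had 17.2, 28.1 and 14.9 CPM in Gata2+/f, against 16.2, 18.5 and 13.4 CPM in Gata2+/+, a log2 fold change of 0.33 (95% interval -0.44 to 1.09). Both ranges overlapped between genotypes, as did the ratio of Nras to Hras. Ptpn11, a phosphatase that passes receptor signals to RAS, averaged 118 ± 31.1 CPM in Gata2+/f and 114 ± 16.0 CPM in Gata2+/+ (SD, n = 3 each). Nf1, which switches RAS off, had 33.7, 3.99 and 21.8 CPM in Gata2+/f, against 17.7, 19.3 and 23.7 CPM in Gata2+/+. Replicate 9 was far below the rest for this gene of 15.8 kb of exons, and the log2 fold change moved to 0.51 without it, against -0.03 with all libraries.

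Of 37 other RAS and JAK pathway genes, 23 were lower in Gata2+/f. DESeq2 called 2 higher and 3 lower, and edgeR called 0 and had 2 higher and 9 lower with unadjusted p values under 0.05. Stat5a and Stat5b, transcription factors that JAK2 activates, had log2 fold changes of -1.08 and -0.99, with DESeq2 adjusted p of 0.0266 and 0.0486. Stat5a averaged 129 ± 26.7 CPM in Gata2+/f and 274 ± 65.7 CPM in Gata2+/+, and Stat5b averaged 159.7 ± 38.4 CPM in Gata2+/f and 317 ± 58.8 CPM in Gata2+/+ (SD, n = 3 each). The third of the lower calls was Rras2, another RAS relative, named here after its values had been seen. The higher calls were Mras, a RAS relative, at 5.37 ± 1.73 CPM in Gata2+/f and 0.990 ± 0.516 CPM in Gata2+/+ (SD, n = 3 each; log2 fold change 2.44, DESeq2 adjusted p = 0.000131), and Rasgrp3, an exchange factor for RAS, at 2.74 (DESeq2 adjusted p = 0.00387). Rasgrp3 was nearly silent in both groups, at 1.78 ± 1.48 CPM in Gata2+/f and 0.265 ± 0.0697 CPM in Gata2+/+ (SD, n = 3 each).

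Wt1, a zinc finger gene that is often highly expressed in human AML, was close to absent. It had 16, 0 and 3 counts in Gata2+/f, against 1, 23 and 91 counts in Gata2+/+. Most of the 115 counts in Gata2+/+ came from replicate 6, and most of the 19 in Gata2+/f from replicate 7, and the SD in Gata2+/+, 0.724 CPM, was larger than either mean, 0.0904 CPM in Gata2+/f and 0.610 CPM in Gata2+/+. The log2 fold change was -2.71 (SE 1.47, adjusted p = 0.307 by edgeR's quasi-likelihood test), and leaving out 1 library at a time gave -4.56 to -1.14.

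Levels per kilobase of exon, as the median over the 6 libraries, ranged widely within each role. Splicing genes ran from 4.88 CPM per kb for Zrsr2 to 118 for Srsf2, the highest of the 39. Cohesin genes ran from 6.58 for Stag1 to 63.2 for Rad21, and signalling genes reached 35.9 for Jak2, with Nf1 the lowest. Polycomb genes ran from 2.83 for Bcorl1 to 29.3 for Suz12, and DNA methylation genes from 2.35 for Dnmt3b to 28.1 for Idh2. The histone modifiers formed the narrowest group, from 5.73 for Phf6 to 13.3 for Kmt2d.

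Promoter windows of 250 bases before the gene start were held for 35 of the 39 genes. CCAAT on either strand was found in 10 of the 35, counting any window of a gene. Of 32851 single windows of that length, 33.8% held it. The 35 genes had 40 windows, so this share, like those of the other motifs, is per window and not per gene. CCAAT was present in all 4 genes higher at an unadjusted p under 0.05 and in 0 of the 9 lower ones. These sets depend on the setting: with the exon length offset Dnmt3a, which has no match, takes the place of U2af1, and without Gata2+/f replicate 9 the higher set is Ezh2 alone. Among all tested genes with a window, it was present for 42.3% of 1333 higher, 37.8% of 1245 lower and 40.3% of 10735 in all. Of the other motifs searched on both strands, TTTGAA, the core of the cell cycle homology region, was found for 7 of the 35 genes, against 16.0% of windows. AGATAA, a motif of the factor family of GATA2, was found for 2, Ddx41 and Nras, against 9.99% of windows. TTCCCGCC, an E2F motif, was found for Asxl1 alone, against 1.86% of windows. No motif of these 4 contains another. A match is a description of these letters and not a binding site.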

How the data were processed

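The deposited values are expected counts, the read numbers that RSEM estimates for each Ensembl gene, and the authors left them unnormalized; 11.7% of values were not whole. Per the labels' protocols, c-kit+ cells were sorted from thawed marrow and libraries were poly-A selected and stranded. Per the submitters' processing notes, the build was GRCm38 and the tools were RSEM 1.3.0, STAR 2.5.4a and CASAVA 1.8.2. The annotation release and the strand setting of counting are not given in the sources used here, and 13 of the 39 genes have exons that overlap an opposite-strand gene, which makes their counts uncertain.

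Symbols and exon lengths came from GENCODE M21, which held 97.3% of the IDs. Counts were rounded, filtered with filterByExpr (minimum count 10), scaled by TMM (factors 0.821 to 1.11) and tested with edgeR 4.0.16 in R 4.3.3 (two-sided glmQLFTest without covariates on glmQLFit in its legacy form). P-values were adjusted by the Benjamini-Hochberg method over 15432 genes. Intervals are unadjusted 95% intervals. CPM per kb divides CPM by the summed length of a gene's exons. Alternatives were DESeq2 1.42.0, the later quasi-likelihood form, voom of limma 3.58.1, RLE and upper quartile factors, other filters, sex as a covariate, a threshold of 0.1, leaving out each library and, added later, an exon length offset. No libraries were duplicates (chi-square per gene 223 or more). The tests were tested on simulated data. The 39 genes, the other lists and the tests were chosen with earlier results of these data known. Libraries' values are given for genes whose groups do not overlap, or with an unadjusted p under 0.05, or called by DESeq2, and for related pairs. From each other list, up to 4 genes with the smallest p are named, except 1 that is not reported here. Any other values are given for account of all 39. A count of 3 or fewer is treated as the limit of detection, and counting error only is covered by it.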

Additional observations from a re-analysis of the deposited data

How the results depend on the processing

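No paired analysis was possible because the groups share no replicate numbers (7, 9 and 11 in Gata2+/f, and 3, 5 and 6 in Gata2+/+). The number of all genes called was 0 in the main test, 1724 with DESeq2, 32 with the later quasi-likelihood form, 9 with voom, 19 with no filter beyond 1 count, 9 with sex as a covariate and 444 at an adjusted p under 0.1. Leaving out each library gave 0 to 66, with 66 without Gata2+/f replicate 11 and 1 without Gata2+/+ replicate 6. Of the 39 genes, 2 were called with DESeq2 (Ezh1 and Crebbp), 1 at an adjusted p under 0.1 (Crebbp) and 0 in the main test and in the other settings. The number with a positive log2 fold change was 16, and 12 to 20 when leaving out each library. The median of the 39 was -0.247, and -0.404 to 0.022 when leaving out each library, with the value above 0 obtained without Gata2+/f replicate 9. Upper quartile factors moved the median of all genes from 0.019 to 0.111 and gave unadjusted p values under 0.05 for 13.3% of genes higher and 9.48% lower, against 11.1% and 11.5%.

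The sign turned in at least 1 setting for 10 of the 39 genes, all with an adjusted p above 0.37 in these settings, and in none for the other 29. With the exon length offset it turned for Tet3 (0.205) and Nf1 (0.18). With sex as a covariate it turned for Suz12 (-0.033), Smc3 (-0.0057), Srsf2 (-0.00018) and Nf1 (0.056), with voom for Suz12 (-0.047) and with upper quartile factors for Ctcf (0.015) and Nf1 (0.017). Leaving out each library gave -0.279 to 0.151 for Tet3, -0.32 to 0.365 for Suz12, -0.785 to 0.103 for Bcor and -0.287 to 0.569 for Phf6. It gave -0.413 to 0.022 for Stag1, -0.091 to 0.275 for Smc3, -0.326 to 0.175 for Ctcf, -0.104 to 0.285 for Ptpn11 and -0.595 to 0.508 for Nf1. The causes were not tested. Wt1 was not kept by the filter of 1 CPM in 3 libraries. With 3 mice a group and a common biological coefficient of variation of 0.483, the SE of a log2 fold change was 0.19 to 1.47 among the 39 genes.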
